A study of Mus musculus with 12 samples.

Results

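Forkhead, Sox and T-box genes encode 3 families of DNA-binding transcription factors, and 45 of them were followed here in stromal cells of the mouse colon. They are the genes of the deposited table whose mouse symbol is Fox with a letter from a to s and a number, Sox with a number, or Tbx with a number. Foxf1, Foxf2, Foxl1, Sox6 and Sox10 were left out by the same rule, which leaves 25 forkhead, 13 Sox and 7 T-box genes of the 19049 genes in the table. The rule used names only, but it was set with earlier results of these data known.

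All mice were C57BL/6J. The study profiled 4 normal adult colons at 8 weeks of age, 4 colons at postnatal day 14 (P14, labelled 2 weeks) and 4 colonic tumours at 12, 13, 14 and 14 weeks, with 1 library per sample. The tumours had been raised with azoxymethane (AOM), a carcinogen, together with dextran sodium sulfate (DSS), a polymer that damages colonic epithelium; the other 2 groups carry no treatment label, and no untreated colon of the tumours' age was compared here. Cells were sorted as DAPI-negative and negative for EPCAM, CD31, CD45 and TER119, which removes dead, epithelial, endothelial, leukocyte and red-lineage cells, and polyadenylated RNA was sequenced. The sorted fraction is a mixture of fibroblasts, smooth muscle, pericytes, glia and other cells, so in these bulk samples fewer cells of a type and less RNA per cell cannot be told apart. P14 and tumours were each compared with normal adult colon, as the study's design text names, and with each other.

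Normal adult libraries held 26392364 to 29911817 counts, those of P14 held 29499836 to 38799033 and those of tumours 15449444 to 28471598. Tumour replicate 4 had the lowest total and stood apart with 9.14% of listed genes at a count of 0, against at most 1.4% elsewhere. It held a count of 0 for 9 of the 45 genes (Foxa2, Foxa3, Foxd3, Foxe1, Foxn1, Foxo6, Sox8, Sox17 and Sox18), while in the other libraries only Foxe1 and Foxn1 were ever at 0. By counting error alone, a count of 0 in it allows a level of up to 0.214 CPM (3 counts, where CPM is the count scaled by library size). Foxa3, at 0 there, was at 3.73, 3.87 and 11.3 CPM in tumour replicates 1 to 3, so this bound may not hold for that library. Per the design text, males and females (2 each) made up every group, but all 4 tumour libraries had Xist of 481 to 1395 CPM and at most 1 Y-linked count, so these libraries go against that statement and sex and tumour cannot be fully told apart. Pdgfra, a fibroblast marker, lay at 504 to 1247 CPM in all 12 libraries. Epithelial RNA was also present, with Epcam at 704 to 1589 CPM in normal adult, 39 to 291 at P14 and 212 to 767 CPM in tumours.

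Forkhead proteins bind DNA through a winged-helix domain. Foxf1, Foxf2 and Foxl1, left out here, are the forkhead factors best known in gut mesenchyme, Foxa factors open chromatin in gut epithelium, Foxo factors act downstream of insulin signalling, and Foxm1 drives mitotic genes. Sox proteins bind through an HMG box that bends DNA: Sox4, Sox11 and Sox12 form the SoxC group of immature and migrating cells, Sox2 and Sox21 belong to the SoxB group of neural and foregut progenitors, Sox7, Sox17 and Sox18 to the endothelial SoxF group, and Sox8, Sox9 and Sox10 to the SoxE group of cartilage and neural crest. T-box proteins share the DNA-binding domain of Brachyury and pattern mesoderm, limbs, lung and heart.

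Upstream sequences are shown for 4 genes with large changes whose windows differ in motif content. Each is the 250 bases before the RefSeq gene start on GRCm38.p6, read 5′ to 3′ on the gene's strand. Capitals mark a match to the CCAAT box (CCAAT) or the GC box (GGGCGG) on either strand. Sox11 lies at chr12:27342719-27342968 on the minus strand, Sox2 at chr3:34649745-34649994 on the plus strand, Sox21 at chr14:118237031-118237280 on the minus strand and Foxd3 at chr4:99656049-99656298 on the plus strand.
Sox11: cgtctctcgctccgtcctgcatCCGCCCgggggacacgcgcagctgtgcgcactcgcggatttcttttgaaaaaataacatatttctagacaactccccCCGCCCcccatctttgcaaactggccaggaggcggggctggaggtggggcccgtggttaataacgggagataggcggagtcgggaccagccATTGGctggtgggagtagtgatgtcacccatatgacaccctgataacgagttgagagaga
Sox2: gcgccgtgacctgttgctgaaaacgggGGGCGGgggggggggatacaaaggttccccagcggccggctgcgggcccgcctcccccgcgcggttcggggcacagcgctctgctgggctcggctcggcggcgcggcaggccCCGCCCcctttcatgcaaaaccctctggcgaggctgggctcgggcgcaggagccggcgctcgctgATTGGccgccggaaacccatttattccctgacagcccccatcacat
Sox21: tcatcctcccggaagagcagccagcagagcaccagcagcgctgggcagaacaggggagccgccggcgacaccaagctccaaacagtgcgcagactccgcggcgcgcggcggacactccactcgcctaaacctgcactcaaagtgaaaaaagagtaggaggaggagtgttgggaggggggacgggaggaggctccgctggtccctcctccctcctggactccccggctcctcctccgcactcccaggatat
Foxd3: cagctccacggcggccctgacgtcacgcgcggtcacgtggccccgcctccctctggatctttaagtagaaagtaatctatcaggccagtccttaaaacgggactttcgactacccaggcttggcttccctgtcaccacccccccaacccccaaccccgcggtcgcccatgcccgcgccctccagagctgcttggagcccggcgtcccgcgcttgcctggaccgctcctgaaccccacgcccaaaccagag
Sox11 and Sox2 each held 1 CCAAT box and 2 GC boxes, while Sox21 and Foxd3 held neither. None of these 4 windows held the forkhead core TAAACA, the SOX core ACAATG, the T-box core GGTGTGA or the TATA box TATAAA. A window was found for 28 of the 45 genes, and these windows were rich in G and C, with a median of 64.8% GC and 17.5 CG dinucleotides against 52% and 6 over 27025 windows of all genes. The GC box occurred in 18 of 28 (64.3%) against 32.9% of all windows, and the CCAAT box in 12 of 28 (42.9%) against 34.5%. The forkhead core was found upstream of Foxa1, Foxp1 and Sox12 (10.7% against 12% of all windows), the SOX core upstream of Sox5 (3.57% against 11%), the T-box core in none (against 3.31%) and the TATA box upstream of Foxa3, Tbx4 and Tbx6 (10.7% against 13%). A match is a description of the letters and not a bound site.

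Per length of exon, Foxo3 was the most abundant of the 45 in normal adult stroma at 17.7 RPKM (CPM divided by exon length in kilobases), followed by Tbx2 at 9.43 and Foxo4 at 8.72 RPKM. At P14, Tbx2 came first at 19.5 RPKM, before Foxo3 at 15.4 and Sox4 at 12.3 RPKM. In tumours the order was Foxo3 at 16.4, Tbx2 at 9.91, Sox4 at 9.7 and Sox2 at 8.43 RPKM, and Sox2 was at 0.33 RPKM in normal adult stroma. A mean of at least 1 CPM in some group was reached by 41 genes; Foxn1, Foxo6, Sox18 and Tbx1 stayed under it.

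A gene was called when edgeR's quasi-likelihood test, fitted to all 12 libraries, gave a Benjamini-Hochberg adjusted p under 0.05 over the 18727 genes tested; 44 of the 45 were tested. At P14, 11 were higher (25%) and 5 lower (11.4%) than in normal adult stroma, against 14.9% and 16.0% of all tested genes. In tumours, 12 were higher (27.3%) and 2 lower (4.55%), against 10.6% and 8.29% of all tested genes. In tumours against P14, 11 were higher (25%) and 7 lower (15.9%), against 19.7% and 17.3% of all tested genes. These shares of all tested genes are also the background for the counts of listed markers and target genes below. Groups did not overlap for 19 of 44 genes at P14 (43.2%, background 43.3%), for 15 in tumours against normal adult (34.1%, background 22.0%) and for 15 in tumours against P14 (34.1%, background 32.2%).

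The median absolute log2 fold change of the 44 genes was 0.65 at P14 (0.47 over all tested genes), 0.86 in tumours (0.40) and 0.67 between tumours and P14 (0.54). Of the 13 Sox genes, 4 were higher and 1 lower at P14, and 5 were higher in tumours. None of the 13 was called lower in tumours by edgeR, with 1 (Sox8) at an unadjusted p under 0.05, 1 called by DESeq2 and 0 by limma voom. Of 24 tested forkhead genes, 6 were higher and 3 lower at P14, and 6 were higher and 2 lower in tumours. Each of these comparisons uses the same normal adult libraries: Foxc1, Foxk2, Foxm1, Foxs1, Sox2, Sox4 and Sox11 were called higher in both, Foxd2 lower in both, and Sox21 lower at P14 and higher in tumours. In all, 25 genes were called in at least 1 of the 3 comparisons and 19 in none.

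**Figure D1:**
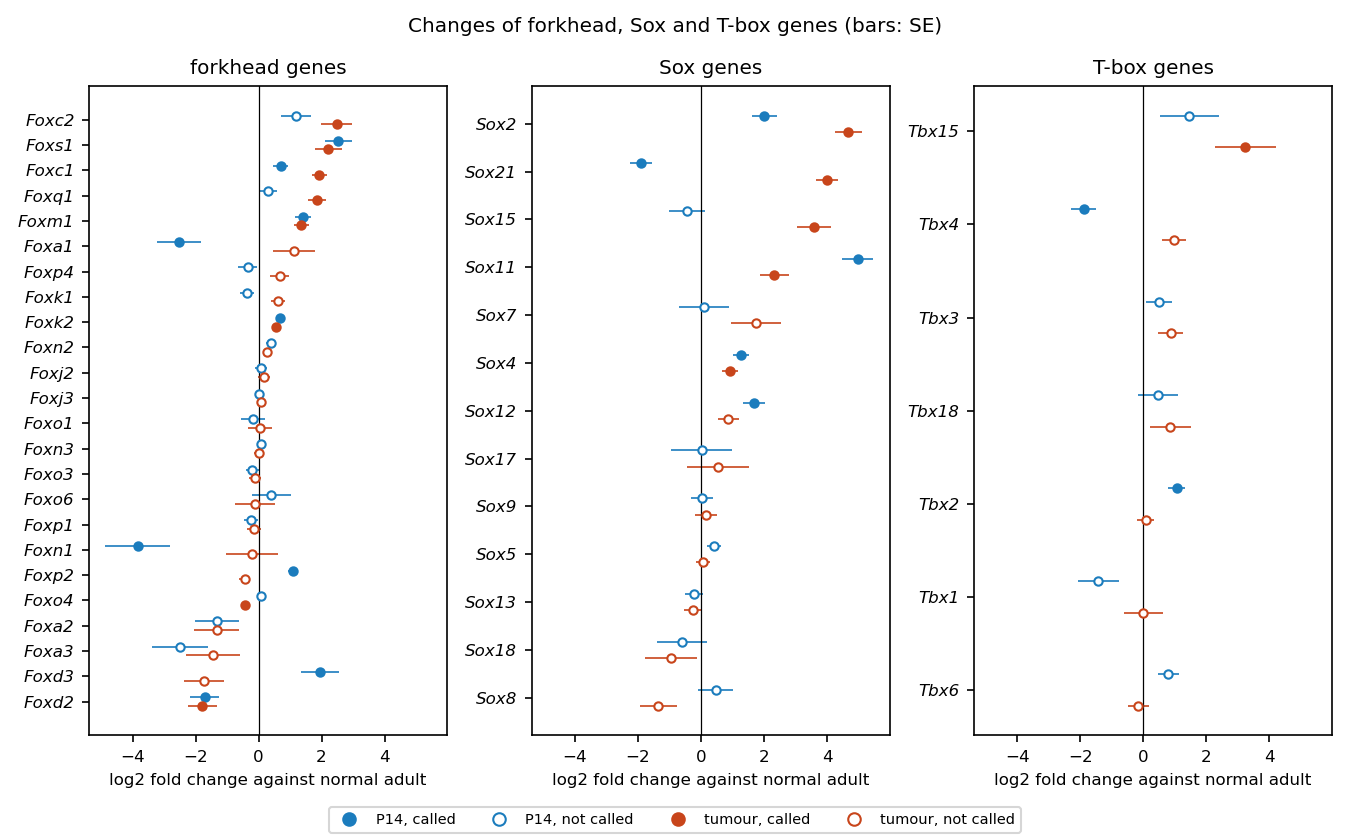
Log2 fold change (x axis) of the 44 tested genes at P14 (blue) and in tumours (red) against the same 4 normal adult libraries, with bars for the SE and filled points for called genes. Sox11 at P14 (4.97) and Sox2 in tumours (4.67) lie farthest to the right; Sox21 and Foxd3 have their 2 points on opposite sides of 0.

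The SoxC genes were all higher at P14. Sox11, which marks immature neurons and mesenchyme, was at 0.577, 0.553, 0.901 and 0.75 CPM in normal adult replicates 1 to 4, at 18.2, 17.5, 31.7 and 20.1 CPM at P14, and at 3.37, 0.931, 6.42 and 3.36 CPM in tumours. The 3 groups did not overlap, with tumours between the others and tumour replicate 2 close to the normal adult libraries. Its log2 fold change was 4.97 ± 0.50 (SE) at P14 (edgeR adjusted p = 9.34e-05), 2.33 ± 0.47 in tumours (adjusted p = 0.00487) and -2.64 ± 0.44 in tumours against P14 (adjusted p = 0.000752). In limma voom the tumour value was 1.96 (adjusted p = 0.0703), which ends that call.

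Sox4, a factor widely present in immature cells, was far more abundant. Its levels were 22.3, 24.9, 23.6 and 26.8 CPM in normal adult libraries, 63.7, 56.2, 60.7 and 54.7 CPM at P14, and 48.0, 27.4, 77.4 and 33.3 CPM in tumours. Both the P14 and the tumour libraries lay above all normal adult ones, and tumours spread most widely. The log2 change was 1.27 ± 0.26 at P14 (edgeR adjusted p = 0.00327) and 0.93 ± 0.26 in tumours (adjusted p = 0.0243). The tumour call was lost without normal adult replicate 1, 2 or 3 (0.89, 0.94 and 0.91, adjusted p = 0.0658, 0.054 and 0.0649), in the fit of 8 libraries (0.95, adjusted p = 0.0616) and with a term for sex (0.90, adjusted p = 0.0767); without tumour replicate 4 it was 1.06 (adjusted p = 0.0182).

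Sox12, the weakest SoxC activator, was at 1.76, 1.36, 2.6 and 2.69 CPM in normal adult libraries, 6.29, 7.03, 7.91 and 5.97 at P14, and 6.88, 2.43, 3.19 and 2.86 CPM in tumours. It rose by 1.69 ± 0.35 at P14 with no overlap (edgeR adjusted p = 0.00341). The tumour value was 0.87 ± 0.34 (adjusted p = 0.0995), with tumour replicate 1 alone at the P14 level. Markers of enteric neurons, in which SoxC genes are also known, were higher at P14 for 7 of 10 tested genes (sums of 27.3 to 62.8 against 18.5 to 27.7 CPM) and for 1 of 10 in tumours (27.1 to 54). The part of neurons in the SoxC values was not tested.

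**Figure D2:**
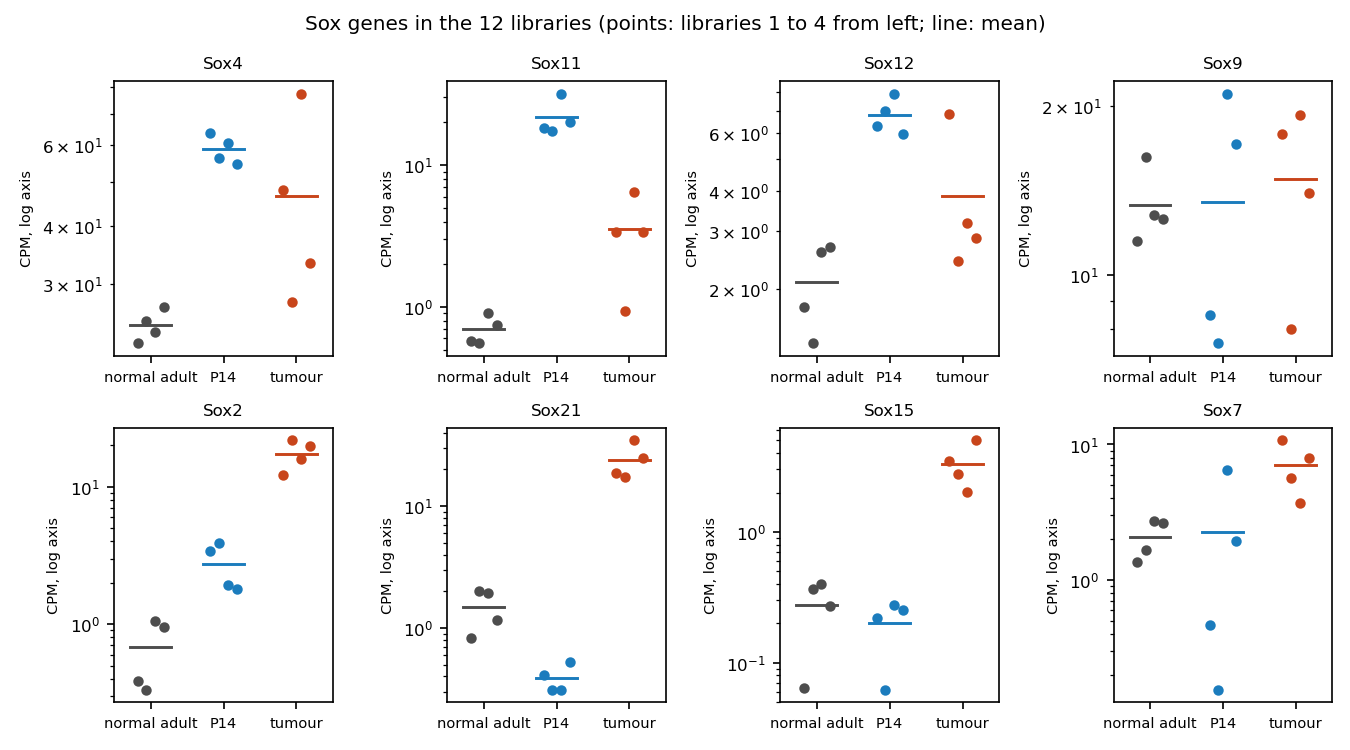
CPM on a log axis (y) of 8 Sox genes in each library, with replicates 1 to 4 drawn left to right in each group and a line for the mean. Sox11 is highest at P14 (17.5 to 31.7), Sox2 and Sox21 are highest in tumours (12.1 to 21.7 and 17.2 to 34.6), and Sox9 shows 2 low P14 libraries (7.55 and 8.49).

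Among the 44 tested forkhead, Sox and T-box genes, Sox2, Sox21 and Sox15 had the 3 largest rises in tumours against normal adult. Sox2, a stem cell and foregut factor, was at 0.384, 0.332, 1.05 and 0.954 CPM in normal adult libraries, 3.38, 3.87, 1.94 and 1.81 at P14, and 12.1, 21.7, 15.9 and 19.7 CPM in tumours. The 3 groups formed 3 steps without overlap. It rose by 2.01 ± 0.40 at P14 (edgeR adjusted p = 0.00302), by 4.67 ± 0.43 in tumours (adjusted p = 4.59e-05) and by 2.65 ± 0.39 from P14 to tumours (adjusted p = 0.000307). Sox2 lies in an intron of Sox2ot on the same strand. Glial and Schwann markers, a list of 10, were higher for 6 and lower for 1 at P14, and higher for 1 and lower for 2 in tumours. The list's sum overlapped between all groups (276 to 365, 311 to 416 and 196 to 447 CPM). Sox2 was higher in P14 replicates 1 and 2 than in 3 and 4, as was Foxd3 of that list (7.53 and 8.33 against 3.59 and 3.46 CPM). The part of glia in the Sox2 values was not tested.

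Sox21, a SoxB repressor, was at 0.833, 2.03, 1.95 and 1.16 CPM in normal adult libraries, at 0.412, 0.31, 0.311 and 0.53 CPM at P14, and at 18.6, 17.2, 34.6 and 24.9 CPM in tumours. All P14 libraries lay below and all tumour libraries above the normal adult range. Its log2 change was -1.91 ± 0.35 at P14 (edgeR adjusted p = 0.00213), 4.00 ± 0.34 in tumours (adjusted p = 2.85e-05) and 5.90 ± 0.38 in tumours against P14 (adjusted p = 3.27e-06). Gm4675, a long noncoding RNA that shares exon bases on the opposite strand, was at 0.211 ± 0.105 (SD, n = 4), 0.0467 ± 0.0443 and 0.88 ± 0.462 CPM in the 3 groups. Since the strand setting of the count is not given, reads of the pair may be split either way.

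Sox15, a factor of muscle precursors and keratinocytes, stayed low outside tumours. It was at 0.0641, 0.369, 0.397 and 0.273 CPM in normal adult libraries, 0.22, 0.0619, 0.276 and 0.251 at P14, and 3.51, 2.76, 2.02 and 5.0 CPM in tumours. Every tumour library lay above every other library, with a log2 change of 3.58 ± 0.54 against normal adult (edgeR adjusted p = 0.000955) and 4.00 ± 0.55 against P14 (adjusted p = 0.000234). Its last exon bases are shared on the opposite strand with Mpdu1, which was far higher at 32.2 ± 5.4, 22.8 ± 5.33 and 28.1 ± 6.09 CPM (SD, n = 4) and was not called (log2 change -0.20 in tumours, adjusted p = 0.55).

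Foxe1, a thyroid and foregut factor, had 1, 0, 1 and 0 counts in normal adult libraries, 1, 1, 1 and 2 at P14, and 52, 50, 20 and 0 in tumours. It was above the floor of 3 counts only in tumour replicates 1, 2 and 3, and too few libraries held counts for it to pass the filter. The ratio of summed counts per scaled library size between tumour and normal adult was 81.5 (22.1 to 680, exact 95% interval, counting error only). Tested without the filter, its log2 change was 5.88 in tumours (edgeR adjusted p = 0.00363), and DESeq2 gave 6.17 (adjusted p = 0.000143).

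Foxn1, the factor of thymic epithelium and hair keratinocytes, stayed at or under 1.17 CPM in all libraries: 0.32 to 0.996 CPM in normal adult, 0 to 0.112 at P14 and 0 to 1.17 CPM in tumours. It fell by 3.83 on the log2 scale at P14 (SE 1.03, edgeR adjusted p = 0.014), with all P14 libraries below the normal adult range, and was 3.63 ± 1.04 higher in tumours than at P14 (adjusted p = 0.0165). The P14 value was -4.81 without P14 replicate 4. The difference between tumours and P14 was 4.60 without that library, 3.07 without tumour replicate 1 (adjusted p = 0.0501), 3.19 in limma voom (adjusted p = 0.0655) and 3.99 without tumour replicate 4 (adjusted p = 0.00432).

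Squamous epithelial markers were higher in tumours than in normal adult, as were Sox2, Sox21 and Sox15. Foxe1, which was outside the main test, was higher when tested without the filter, with counts above the floor in tumour replicates 1, 2 and 3 only. Foxn1 was not called in tumours against normal adult (-0.21, edgeR adjusted p = 0.891). At P14, where Sox2 rose, 1 of 12 tested squamous markers was called lower and the list's median was -1.42. Of 13 listed, 12 were tested and all 12 were higher in tumours, with sums of 6009 to 16975 CPM against 80.5 to 601 in normal adult and 113 to 241 at P14. Keratin genes Krt5, at 777 to 1833 CPM in tumours, and Krt14, at 1936 to 8927 CPM, and the basal cell factor Trp63, at 87.1 to 189 CPM, were among them; Krt6a, Krt13 and Ivl were at 0 in some library. The part of squamous cells in the values of Sox2, Sox21, Sox15, Foxe1 and Foxn1 was not tested. Within tumours, replicate 4 had the highest squamous sum and the highest Sox15, but a count of 0 for Foxe1 and Foxn1. Replicate 3 had the highest Sox21, replicate 2 the highest Sox2, and replicate 1 the highest Foxe1 and Foxn1.

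The SoxF genes, which act in endothelium, were not called in any comparison. Sox7 was at 2.09 ± 0.695 CPM in normal adult (SD, n = 4), 2.26 ± 2.93 at P14 and 7 ± 2.99 in tumours, a log2 change of 1.74 ± 0.80 in tumours (edgeR adjusted p = 0.153) although the tumour libraries (3.72 to 10.7 CPM) all lay above the normal adult ones (1.35 to 2.74). Sox17 means were 1.54, 1.58 and 2.22 CPM and Sox18 means 0.738, 0.488 and 0.361 CPM. All 3 were highest among P14 libraries in replicate 3, at 6.5, 3.87 and 1.24 CPM. That library also had the highest P14 sum of 12 endothelial markers, 453 CPM against 158 to 221 in the other 3. In tumours, where Sox7 had its highest mean, this sum was lowest (75.6 to 132 against 283 to 411 CPM in normal adult), with 4 of 12 markers lower and 1 higher; Cldn5 was at 0 in some library, and the part of endothelial cells was not tested.

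Among the other Sox genes, Sox8, a SoxE factor of glia and testis, was at 2.18, 1.7, 1.84 and 3.24 CPM in normal adult libraries, 2.58, 3.47, 3.52 and 2.87 at P14 and 0.81, 1.07, 1.48 and 0 CPM in tumours. Tumours lay below both other groups without overlap, but only the difference from P14 was called, at -1.84 ± 0.59 (edgeR adjusted p = 0.028; -1.36, adjusted p = 0.128, against normal adult). That call was lost without P14 replicate 2 or 3 or tumour replicate 1 (-1.79, -1.78 and -1.81, adjusted p = 0.062, 0.0576 and 0.0602), in the fit of 8 libraries (-1.83, adjusted p = 0.0772) and with a sex term (-1.85, adjusted p = 0.0693), and was -1.47 (adjusted p = 0.00436) without tumour replicate 4. The antisense gene 2810468N07Rik, which shares exon bases, also differed, at 3.64, 4.34 and 1.72 CPM in the 3 groups and -1.34 in tumours against P14 (adjusted p = 0.0029).

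Sox9, the cartilage and crypt factor, differed by at most 0.16 in log2 between any groups, with means of 13.3, 13.5 and 14.8 CPM. Sox5 (22.5, 29.9 and 23.5 CPM) and Sox13 (23.3, 20 and 19.4 CPM), SoxD factors without an activation domain, were not called either. Sox6 of the same group, left out by the rule, was at 54.5, 38.6 and 54 CPM, and Sox10 at 3.18, 8.97 and 1.96 CPM. Of 9 tested SOX9 target genes of cartilage, 5 were higher and 1 lower at P14 and 3 higher and 1 lower in tumours, with medians of 1.75 and 1.01. Over all tested genes, 14.9% were higher and 16.0% lower at P14, and 10.6% and 8.29% in tumours. Col9a2 rose by 3.52 ± 0.77 at P14 (edgeR adjusted p = 0.00481) and Col11a1, a fibrillar collagen chain, by 2.68 ± 0.42 (adjusted p = 0.000897), while Sox9 itself did not pass the test.

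Foxd3, which maintains neural crest and glial precursors, was at 1.38, 0.553, 1.48 and 2.49 CPM in normal adult libraries, 7.53, 8.33, 3.59 and 3.46 CPM at P14, and 0.72, 0.465, 0.494 and 0 CPM in tumours. P14 libraries lay above all others, and tumours overlapped normal adult at replicate 1 only. The log2 change was 1.95 ± 0.59 at P14 (edgeR adjusted p = 0.0241), -1.74 ± 0.64 in tumours (adjusted p = 0.0769) and -3.69 ± 0.66 in tumours against P14 (adjusted p = 0.0011; -3.35 without tumour replicate 4, adjusted p = 0.000994). The P14 call was lost without normal adult replicate 1, 2 or 3 or P14 replicate 1 or 2, at values of 1.92, 1.68, 1.95, 1.79 and 1.72 (adjusted p = 0.0573 to 0.0752).

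Other glial genes moved with Foxd3 in part. Of 10 glial and Schwann markers, a list that includes Foxd3 and Sox10, 6 were higher and 1 lower at P14 and 1 was higher and 2 lower in tumours. S100b, a glial calcium-binding protein, rose by 1.49 at P14 (edgeR adjusted p = 0.0151) and was at -1.85 in tumours against P14 (adjusted p = 0.00439). The list's sum without Foxd3 overlapped between all groups, at 275 to 364, 308 to 409 and 196 to 447 CPM, and the part of glia in the Foxd3 values was not tested.

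Of the Foxa genes, pioneer factors of gut epithelium, Foxa1 was called lower at P14. It was at 6.34, 14.5, 11.7 and 6.24 CPM in normal adult libraries, 0.522, 0.929, 0.83 and 4.38 at P14, and 13.4, 7.88, 46.6 and 16.2 CPM in tumours. All P14 libraries lay below the others, and tumours overlapped normal adult. The log2 change was -2.53 ± 0.70 at P14 (edgeR adjusted p = 0.0161), 1.12 ± 0.66 in tumours (adjusted p = 0.261) and 3.65 ± 0.73 in tumours against P14 (adjusted p = 0.00222). The P14 value was -2.33 without P14 replicate 2 (adjusted p = 0.0509) and -3.67 without P14 replicate 4 (adjusted p = 0.00136). The difference between tumours and P14 was 4.78 without P14 replicate 4 and 2.89 without tumour replicate 3.

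Foxa3 had means of 12.9, 2.29 and 4.73 CPM in the 3 groups and Foxa2 means of 2.89, 1.16 and 1.12 CPM; neither was called at P14, where adjusted p was 0.0512 and 0.18. Epithelial markers moved with the Foxa genes: all 18 were lower at P14 and 5 were lower in tumours, with sums of 7256 to 15186 CPM in normal adult, 463 to 3049 at P14 and 1633 to 5840 in tumours, and none at 0 in any library. P14 replicate 4, which had the highest Foxa1 and Foxa3 of its group, also had the highest P14 epithelial sum, 3049 against 463 to 749 CPM. In tumours, the log2 value of Foxa1 was 1.12 and was not called. The epithelial sum of tumours lay below normal adult without overlap (exact permutation test, two-sided, with 70 possible assignments, p = 0.0286, the smallest possible, and 0.0486 adjusted over the marker lists). Against P14, Foxa1 was called higher in tumours, as were 8 of 18 epithelial markers. None of the 18 was called lower there by edgeR, DESeq2 or limma voom. Tumour replicate 3 had the highest Foxa1 and the highest epithelial sum of its group (5840 CPM), and replicate 2 the lowest of both (sum of 1633 CPM). The part of epithelial cells in the Foxa values was not tested.

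Foxd2, a forkhead factor of kidney and facial mesenchyme, was lower in both. It was at 4.16, 8.48, 5.7 and 3.44 CPM in normal adult libraries, 1.4, 1.33, 0.691 and 3.21 at P14, and 2.43, 1.11, 1.71 and 1.07 CPM in tumours. No normal adult library overlapped either group. It fell by 1.71 at P14 (SE 0.46, edgeR adjusted p = 0.0146) and by 1.78 in tumours (SE 0.47, adjusted p = 0.0201). Without normal adult replicate 2 the values were -1.41 (adjusted p = 0.0543) and -1.48 (adjusted p = 0.0627), so both calls were lost, and without tumour replicate 4 the tumour value was -1.64 (adjusted p = 0.0483). The epithelial sum was also lower in both groups. It had the same order of libraries as Foxd2 in normal adult (7343, 15186, 13420 and 7256 CPM) and the same highest P14 library, replicate 4. In tumours the orders differed, with Foxd2 highest in replicate 1 and the sum in replicate 3. The part of epithelial cells in the Foxd2 values was not tested.

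**Figure D3:**
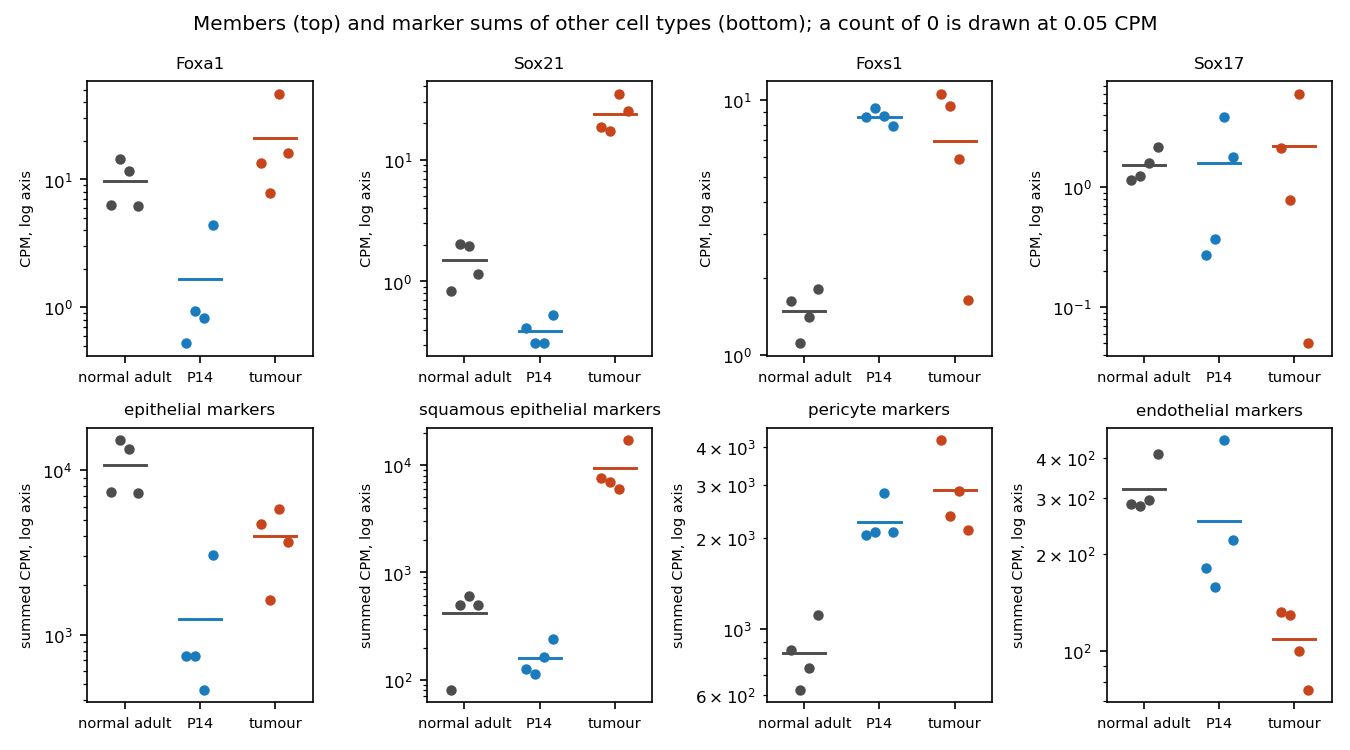
CPM on log axes of Foxa1, Sox21, Foxs1 and Sox17 in each library (top; replicates 1 to 4 from left, line for the mean) above the summed CPM of the marker list printed beside each (bottom). P14 replicate 4 is the highest of its group for Foxa1 and for epithelial markers, and P14 replicate 3 for Sox17 and for endothelial markers.

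Foxs1, known from pericytes and sensory neurons, was at 1.63, 1.11, 1.41 and 1.81 CPM in normal adult libraries, 8.57, 9.32, 8.71 and 7.95 at P14, and 10.6, 9.49, 5.88 and 1.64 CPM in tumours. P14 libraries were tightly grouped above normal adult, while tumour replicate 4 fell within the normal adult range. The log2 change was 2.53 ± 0.43 at P14 (edgeR adjusted p = 0.00145) and 2.22 ± 0.43 in tumours (adjusted p = 0.00413); without tumour replicate 4 the tumour value was 2.53 (adjusted p = 0.000137). Of 10 pericyte markers, 8 were higher at P14 and all 10 in tumours, with sums of 625 to 1107, 2047 to 2829 and 2131 to 4218 CPM and none at 0. Tumour replicate 4 had the lowest sum of its group, at 2131 CPM. That sum still lay above all normal adult libraries, while its Foxs1 lay within their range. The part of pericytes in the Foxs1 values was not tested.

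Foxc1 and Foxc2, close relatives that act in vessels, eye and skeletal mesenchyme, were both higher in tumours. Foxc1 was at 3.94, 5.01, 6.35 and 5.96 CPM in normal adult libraries, 7.69, 8.58, 9.68 and 8.6 at P14, and 20.9, 16.0, 30 and 14.3 CPM in tumours, in 3 steps without overlap. It rose by 1.93 ± 0.24 in tumours (edgeR adjusted p = 0.000321), by 1.23 ± 0.24 from P14 to tumours (adjusted p = 0.0018) and by 0.70 ± 0.24 at P14 (adjusted p = 0.0412). The P14 call was lost without any 1 of the normal adult libraries (0.58, 0.67, 0.80 and 0.76), any 1 of the P14 libraries (0.75, 0.70, 0.64 and 0.70) or tumour replicate 1 (0.70), with adjusted p = 0.0509 to 0.108, and with a sex term (0.71, adjusted p = 0.0519) or limma voom (0.72, adjusted p = 0.0501).

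Foxc2 was at 0.513, 0.442, 0.361 and 0.647 CPM in normal adult libraries, 0.522, 1.08, 1.83 and 1.09 at P14, and 2.56, 1.54, 5.3 and 1.64 CPM in tumours. All tumour libraries lay above normal adult, with a log2 change of 2.48 ± 0.49 (edgeR adjusted p = 0.00462), but tumours and P14 overlapped. The difference of 1.29 ± 0.47 between them (adjusted p = 0.0448) was lost without any 1 of the normal adult libraries (1.29 each, adjusted p = 0.0555 to 0.0598), without P14 replicate 1, 2 or 4 (1.05, 1.27 and 1.27), or without tumour replicate 1 or 3 (1.33 and 0.76), with a highest adjusted p of 0.171. It was also lost in the fit of 8 libraries (1.30, adjusted p = 0.0901) and with a sex term (1.54, adjusted p = 0.0647). At P14 its change of 1.19 ± 0.49 was not called (adjusted p = 0.0811).

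Foxq1, a factor of stomach and hair follicle that is often high in carcinoma cells, was at 3.2, 5.49, 3.61 and 2.86 CPM in normal adult libraries, 4.53, 3.31, 6.67 and 4.1 at P14, and 11.6, 11.9, 19.7 and 12.0 CPM in tumours. Tumours stood above both other groups, which overlapped. The log2 change was 1.86 ± 0.29 against normal adult (edgeR adjusted p = 0.00113) and 1.57 ± 0.29 against P14 (adjusted p = 0.00133), while the P14 value was 0.30 ± 0.28 (adjusted p = 0.471). The gene A530084C06Rik shares exon bases on the opposite strand and was at 0.766, 0.799 and 1.08 CPM, not called.

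These forkhead genes lie beside others of the family that were left out by the rule. On chromosome 13, Foxq1, Foxf2 and Foxc1 follow each other with gaps of 64.8 and 175.2 kb, and on chromosome 8, Foxf1, Foxc2 and Foxl1 follow with gaps of 28 and 9 kb (GENCODE M21, GRCm38). Means in normal adult, P14 and tumours were 117, 266 and 74.2 CPM for Foxf1, 15.4, 29.2 and 8.77 CPM for Foxf2, and 13.6, 19 and 8.12 CPM for Foxl1. In tumours, Foxq1 (1.86), Foxc1 (1.93) and Foxc2 (2.48) were higher, while Foxf2 (-0.81, edgeR adjusted p = 0.0212) and Foxf1 (-0.66, adjusted p = 0.0304) between or beside them were lower. The value of Foxl1 in tumours was -0.75 (adjusted p = 0.125).

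**Figure D4:**
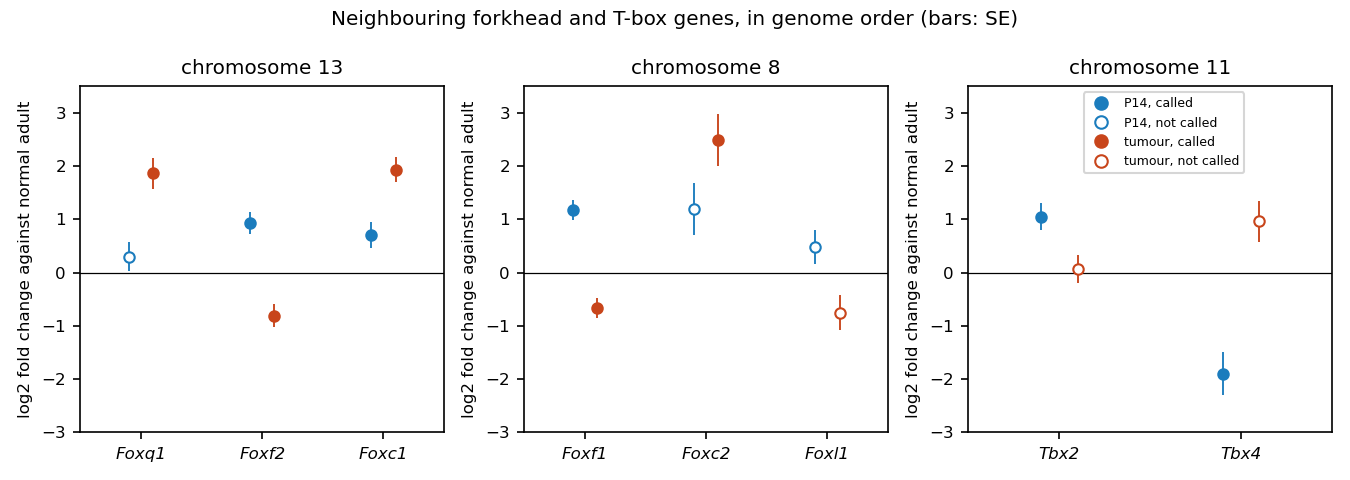
Log2 fold change against normal adult (y axis, bars for the SE) of neighbouring genes in their order on the chromosome, at P14 (blue) and in tumours (red), filled where called. In tumours Foxq1 (1.86) and Foxc1 (1.93) lie above 0 and Foxf2 between them at -0.81; Tbx2 and Tbx4 part at P14 (1.05 and -1.90).

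Foxm1, the forkhead activator of mitotic genes, rose in both comparisons. It was at 2.15, 3.47, 2.63 and 2.25 CPM in normal adult libraries, 6.29, 6.69, 7.46 and 7.54 at P14, and 6.25, 4.62, 7.94 and 8.15 CPM in tumours. Neither P14 nor tumours overlapped normal adult, and the log2 changes were 1.41 ± 0.24 (edgeR adjusted p = 0.00131) and 1.36 ± 0.24 (adjusted p = 0.00219). Of 14 mitotic target genes, 4 were higher and 1 lower at P14, and 4 were higher in tumours, with medians of 0.74 and 0.76. Among all tested genes, 14.9% were higher and 16.0% lower at P14, and 10.6% were higher in tumours. Tpx2 (1.49) and Cenpf (1.35), which build the spindle and the kinetochore, rose at P14, and Plk1, a mitotic kinase, fell by 1.58; in tumours Birc5 (1.29) and Cdc20 (1.15) rose.

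Foxk1 and Foxk2 repress autophagy and support glycolysis, and their values differed. Foxk2 was at 28.1, 28.3, 27.1 and 27.4 CPM in normal adult libraries, 46.1, 44.3, 45.1 and 41.7 at P14 and 40.8, 43.9, 46.2 and 32.0 CPM in tumours. Both groups lay above all normal adult libraries, by 0.68 ± 0.13 (edgeR adjusted p = 0.00209) and 0.56 ± 0.13 (adjusted p = 0.00921). Foxk1 was at 28.6, 33.1, 27.8 and 30 CPM, then 16.1, 20.1, 31.3 and 25.6 CPM at P14, and 51.3, 30.2, 55.9 and 46.3 CPM in tumours; it was called only in tumours against P14 (0.98 ± 0.22, adjusted p = 0.00458), where the groups overlapped.

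Foxp genes are forkhead repressors that work as dimers. Foxp2, known from lung and gut development and from neurons, was at 38.9, 27.2, 32.8 and 38.5 CPM in normal adult libraries, 76.0, 91.1, 70.9 and 54.1 at P14, and 28.4, 26.5, 23.1 and 23.4 CPM in tumours. P14 libraries lay above both other groups, by 1.09 ± 0.17 over normal adult (edgeR adjusted p = 0.001), and tumours differed from P14 by -1.53 ± 0.17 (adjusted p = 6.85e-05). Its tumour value against normal adult was -0.44 ± 0.17 (adjusted p = 0.0942).

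Foxp4 was at 20.6, 24.0, 21.5 and 21.2 CPM in normal adult libraries, 11.8, 13.6, 24.0 and 19.3 at P14, and 40.5, 16.2, 47.5 and 34.5 CPM in tumours, with overlap between all groups. It was 1.01 ± 0.30 higher in tumours than at P14 (edgeR adjusted p = 0.0182), a call lost without P14 replicate 1 (0.87, adjusted p = 0.0567), P14 replicate 2 (0.91, adjusted p = 0.0566) or tumour replicate 3 (0.82, adjusted p = 0.0516). Foxp1 had means of 75.8, 64 and 68.3 CPM and was not called; it shares exon bases with Gm20696 on the same strand.

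Of the Foxo factors, which raise stress and arrest genes when insulin signalling is low, only Foxo4 was called. It was at 29.2, 33.4, 30.5 and 28.4 CPM in normal adult libraries, 33.1, 35.3, 30.1 and 28.9 at P14 and 25.3, 22.3, 19.2 and 22.7 CPM in tumours, which lay below both other groups. It fell by 0.44 in tumours (SE 0.13, edgeR adjusted p = 0.0307) and was -0.51 ± 0.13 against P14 (adjusted p = 0.00838). The first call was lost without normal adult replicate 1, 2 or 3 (-0.46, -0.40 and -0.44), without tumour replicate 3 (-0.37), with adjusted p = 0.0562 to 0.0802, in the fit of 8 libraries (-0.43, adjusted p = 0.072) and with a sex term (-0.40, adjusted p = 0.113). Foxo4 lies on chromosome X.

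Foxo3 (134, 117 and 125 CPM) and Foxo1 (11.3, 9.91 and 11.6 CPM) did not pass the test in any comparison, nor did Foxo6, which stayed at or under 1.44 CPM. Of 16 FOXO target genes, 3 were higher and 2 lower at P14, and 1 was higher and 5 lower in tumours, with medians of 0.21 and -0.18. The shares of all tested genes were 14.9% higher and 16.0% lower at P14, and 10.6% and 8.29% in tumours. Txnip, an inhibitor of glucose uptake, fell by 0.83 at P14 and by 1.38 in tumours (edgeR adjusted p = 0.00113 and 7.64e-05). Gadd45a, a DNA damage response gene, fell by 1.34 in tumours (adjusted p = 0.00306), and Bcl6, a repressor, rose by 1.49 (adjusted p = 0.00264).

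The remaining forkhead genes, Foxj2, Foxj3, Foxn2 and Foxn3, are broadly present factors and did not pass the test. Foxj3 means were 42.1, 42.5 and 44.5 CPM and Foxn3 means 36.9, 39.1 and 36.9 CPM, and neither moved by more than 0.08 in log2. Foxj2 was at 15.6, 16.3 and 17.5 CPM. Foxn2 was at 48, 62.4 and 58 CPM, and its log2 value of 0.38 ± 0.14 at P14 had an edgeR adjusted p of 0.0581.

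Among T-box genes, Tbx2 and Tbx4 are neighbours on chromosome 11 with a gap of 44.5 kb, and each is known from lung and limb mesenchyme. Tbx2 was at 36.5, 23.6, 29.8 and 46.9 CPM in normal adult libraries, 54.5, 61.0, 98.4 and 68.8 at P14, and 44.3, 23.6, 33.7 and 42.2 CPM in tumours. P14 lay above both other groups, by 1.05 ± 0.26 over normal adult (edgeR adjusted p = 0.0091), and tumours differed from P14 by -0.98 ± 0.26 (adjusted p = 0.0109) but not by a call from normal adult (0.07 ± 0.26, adjusted p = 0.881).

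Tbx4 went the other way. It was at 1.79, 1.18, 1.19 and 1.67 CPM in normal adult libraries, 0.192, 0.402, 0.553 and 0.419 at P14, and 2.29, 2.4, 1.93 and 4.86 CPM in tumours, 3 ranges without overlap. Its log2 change was -1.90 ± 0.40 at P14 (edgeR adjusted p = 0.0043) and 2.86 ± 0.41 in tumours against P14 (adjusted p = 0.000298; 2.49 without tumour replicate 4). Against normal adult the tumour value was 0.96 ± 0.38 (adjusted p = 0.0974).

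Tbx15, a factor of skeletal mesenchyme and fat, varied widely within the tumours. It was at 0.416, 0.516, 1.91 and 1.06 CPM in normal adult libraries, 3.71, 3.16, 1.94 and 1.9 at P14, and 20.8, 6.52, 0.0449 and 9.51 CPM in tumours. Tumour replicate 3 had 1 count while the other 3 tumours lay above all other libraries. The log2 change of 3.24 ± 0.97 in tumours (edgeR adjusted p = 0.0352) was lost without normal adult replicate 1, 2 or 4 (2.98, 3.03 and 3.28), without tumour replicate 1 (2.45) or without tumour replicate 4 (3.22), with adjusted p = 0.0554 to 0.102. It was also lost in limma voom (1.81, adjusted p = 0.484), in the fit of 8 libraries (3.25, adjusted p = 0.0764) and with a sex term (2.97, adjusted p = 0.0939).

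Tbx6, which specifies paraxial mesoderm, was at 1.35, 1.7, 1.41 and 2.56 CPM in normal adult libraries, 2.36, 2.85, 3.91 and 2.99 at P14, and 1.08, 1.04, 2.11 and 2.07 CPM in tumours. Tumours lay below P14 without overlap, at -0.95 ± 0.34 (edgeR adjusted p = 0.0426). Of the 12 fits that each left out 1 library, the call held without normal adult replicate 4, tumour replicate 3 or tumour replicate 4 and was lost in the others. Without normal adult replicate 1, 2 or 3 it was -0.95 each, without P14 replicates 1 to 4 it was -1.06, -0.98, -0.81 and -0.96, and without tumour replicate 1 or 2 it was -0.81 and -0.80, with adjusted p = 0.0505 to 0.113. It was also lost in the fit of 8 libraries (-0.94, adjusted p = 0.0784) and with a sex term (-0.96, adjusted p = 0.101).

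Tbx3, Tbx18 and Tbx1 were not called. Tbx3, a partner of Tbx2 in limb and mammary gland, was at 24 ± 6.19, 33.7 ± 20.3 and 43.7 ± 17.9 CPM (SD, n = 4), with P14 replicate 3 at 61.8 CPM and the other P14 libraries at 17.3 to 35.7. Its antisense gene Tbx3os1, which shares exon bases, was called higher at P14 (1.68, edgeR adjusted p = 0.00208), and reads of the pair may be split either way. Tbx18, a factor of pericytes and mural cells, was at 1.34, 1.87 and 2.41 CPM, and ranged from 0.269 to 5.13 CPM within tumours. Tbx1 stayed between 0.128 and 2.04 CPM.

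Other genes of the same regulatory setting were counted from fixed lists. For both lists the background is 14.9% higher and 16.0% lower at P14, and 10.6% and 8.29% in tumours, over all tested genes. Of 30 tested mesenchymal transcription factors of other families, 10 were higher at P14, with a median of 0.61, and 4 were higher and 1 lower in tumours, with a median of 0.39. Snai2, a mesenchymal repressor, rose by 2.31 ± 0.32 at P14 (edgeR adjusted p = 0.000526) and by 1.21 ± 0.32 in tumours (adjusted p = 0.019). Heyl, a Notch target of mural cells, rose by 1.67 and 1.58, and Prrx1, a limb and wound mesenchyme factor, by 1.54 in tumours (adjusted p = 0.025). Of 11 tested cofactors and regulators of SOX and T-box proteins, 2 were higher and 1 lower at P14 and none was called in tumours by edgeR, with 1 at an unadjusted p under 0.05 and none called by DESeq2 or limma voom; Tcf7l2, a Wnt effector, fell by 1.19 at P14 (adjusted p = 0.0176).

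Directly between tumours and P14, the genes higher in tumours were Sox21, Sox15, Foxa1, Foxn1, Tbx4, Sox2, Foxq1, Foxc2, Foxc1, Foxp4 and Foxk1. Those lower were Foxd3, Sox11, Sox8, Foxp2, Tbx2, Tbx6 and Foxo4. This contrast is also the test of whether the changes from normal adult differed, because both use the same normal adult libraries. For Foxs1, Foxm1, Foxk2 and Sox4, which were higher in both, the differences were -0.32 ± 0.40, -0.06 ± 0.23, -0.12 ± 0.12 and -0.34 ± 0.25 (edgeR adjusted p = 0.568, 0.87, 0.471 and 0.315), which does not show that they were equal.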

How the data were processed

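Per the labels' protocols, RNA of sorted colonic stromal cells went into stranded polyadenylated libraries with single reads of 75 bases. The deposited table holds raw counts, 1 column for each of 12 libraries. GRCm38, STAR 2.4.2a and edgeR 3.28.0 are named in the submitters' processing notes; for the counting tool, strand setting and annotation, nothing was given in the sources used here. The lowest row total was 12, and 37 rows had no symbol in GENCODE M21. The 45 genes, the fixed lists and the rule for named genes were chosen with earlier results of these data known.

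From the deposited counts, edgeR 4.0.16 (R 4.3.3) was run with its quasi-likelihood F test, TMM factors and filterByExpr (minimum count 10, minimum total 15), which kept 18727 genes and left out 322, at a Benjamini-Hochberg adjusted p under 0.05 over all of them. The common biological coefficient of variation was 0.333. CPM and RPKM values were computed here from counts, TMM-scaled library sizes and exon lengths, and summed for markers. Named with values in every library were genes of at least 1 CPM in a group that were called in a comparison; the others are given by means and ranges, and up to 4 genes per list; some list members are not reported here. Upstream windows came from RefSeq. Alternatives were DESeq2 1.42.0, limma 3.58.1 voom, other scaling and filters, 8-library fits, a sex term, a replicate block and leaving out each library. The gene test was checked on simulated counts. Libraries come from separate mice per the labels; intervals and floors cover counting error only.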

Additional observations from a re-analysis of the deposited data

Results flagged for a closer look

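Of 121 sets of 4 libraries examined, 4 had 1 library far from the other 3 by Dixon's test, where chance gives about 1 in 20. Foxa1 was at 4.38 CPM in P14 replicate 4 against 0.522 to 0.929 CPM in the other P14 libraries. Foxq1 was at 19.7 CPM in tumour replicate 3 against 11.6 to 12.0 CPM. Sox12 was at 6.88 CPM in tumour replicate 1 against 2.43 to 3.19 CPM. Tbx4 was at 4.86 CPM in tumour replicate 4 against 1.93 to 2.4 CPM.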

How the results depend on the processing

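The 48 called changes of single genes were refitted under 20 alternatives: no direction reversed in 956 refits, 873 kept the call and 83 lost it, and 29 of the 48 changes kept it in every alternative. DESeq2, DESeq2's size factors in edgeR, no filter and a stricter filter ended none, voom ended 4, the fit of 8 libraries 6 and a sex term 7. The block on the title number is no known pairing. Correlations in its 6 same-number pairs ran from -0.292 to 0.319, with 3 over 0.1. The block ended 12 calls. They were Tbx2 at P14, and Foxd2, Foxk2, Foxm1, Foxo4, Sox4, Sox11 and Tbx15 in tumours. Between tumours and P14 they were Foxc2, Foxo4, Foxp4 and Tbx2. The block lowered the count of genes higher in tumours from 12 to 7 and of genes lower in tumours from 2 to 0, and the cause was not tested. The count lower in tumours was 1 in the fit of 8 libraries, 1 with a sex term, 5 in DESeq2, and 0 to 3 when 1 library was left out (fewer samples); the libraries whose loss changed it were normal adult 1, 2 and 3 and tumours 3 and 4. Leaving out 1 library gave 11 to 15 genes higher in tumours, and at P14 9 to 13 higher and 4 to 7 lower. Without tumour replicate 4, 47 of the 48 calls held. Depth limits Foxe1, Foxn1, Foxo6, Sox18 and Tbx1, which had few counts. Genes at 0 in tumour replicate 4 are limited by that library. It had 9.14% of listed genes at 0 with 15449444 counts, against 0.85% with 20780928 counts in tumour replicate 3. The cause of these 0 counts was not tested.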

Other observations

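Within groups, many of the genes shared an order of libraries, a pattern chosen after the values were seen and not tested. In 24 of 44 tested genes (54.5%), P14 replicates 1 and 2 both lay under replicates 3 and 4, against 27.6% of all 18727 tested genes, and in 20 (45.5%) tumour replicate 2 was the lowest tumour, against 25.3%. Both held for 16 genes (36.4% against 12.6%): Foxc2, Foxj2, Foxj3, Foxk1, Foxm1, Foxn3, Foxo3, Foxp4, Sox5, Sox9, Sox11, Sox13, Tbx1, Tbx2, Tbx3 and Tbx6. Foxo3 shows the span, at 91.9 and 98.4 CPM in P14 replicates 1 and 2 against 143 and 134 CPM in replicates 3 and 4, and at 83.1 CPM in tumour replicate 2 against 124 to 152 CPM in the other tumours.

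Contractile smooth muscle genes, not described above, separated P14 from both adult groups in the same libraries: 11 of 12 were higher at P14 than in normal adult, with sums of 4809 to 9189 against 1361 to 2391 CPM, and all 12 were lower in tumours than at P14, with sums of 1326 to 2486 CPM in tumours. Macrophage and pan-leukocyte genes were lower at P14 for 10 of 13, with sums of 26.1 to 43.1 against 161 to 214 CPM.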
